A study of Sorghum bicolor with 24 samples.

Results

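Strigolactones are carotenoid-derived hormones that roots make and exude. In plants studied in depth (rice, Arabidopsis), the isomerase D27 turns all-trans-beta-carotene into its 9-cis form, the dioxygenase CCD7 cleaves that product, and the dioxygenase CCD8 converts the fragment into carlactone, the precursor of all strigolactones. Phosphate starvation is known to raise this pathway in roots of many plants, and the exuded compounds attract mycorrhizal fungi and make seeds of the parasitic weed Striga germinate. The 6 genes that carry these names in sorghum (Sorghum bicolor) were followed here in roots, out of 35907 genes listed in one deposited table and 35842 in the other. They were picked by their names, with earlier results of these data known. D27 is represented by Sobic.005G168200.v3.2 (called D27) and Sobic.009G030800.v3.2 (called the second D27). CCD7 is Sobic.006G170300.v3.2. CCD8 is represented by Sobic.003G293600.v3.2 (CCD8-B) and by a pair of genes named CCD8-A, Sobic.005G002500.v3.2 and Sobic.007G170300.v3.2, told apart here by the chromosome in the identifier, 5 or 7. These names rest on similarity to known proteins. Of the 6 genes, 5 were found in the RefSeq gene table of assembly NCBIv3 by their symbols (CCD8-A of chromosome 5 was not), and the span of a RefSeq pseudogene overlaps that of D27. The overlap was found from start and end alone. Whether reads of D27 and of that pseudogene were told apart in the deposited counts was not tested. CCD8-B, CCD7 and D27 carry the deposited annotation term strigolactone biosynthetic process, and the other 3 do not.

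RNA of roots was sequenced in 24 libraries, 3 in each of 8 groups. The phosphorus experiment compared roots labelled P deficiency with mock at days 4 and 7, and the GR245DS experiment set roots given a synthetic analogue of strigolactone, GR245DS, against mock roots at 3 h and 6 h. The labels used here name no cultivar, plant age, dose or growth medium, and do not say whether replicates came from separate plants, so p-values measure the spread between these libraries, which may be technical. Total counts per library ranged from 32631226 to 45292506 in the first experiment and from 31677623 to 38706195 in the second. All 6 genes passed the filter on low counts in both.

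Some library facts bear on every result below. The phosphorus labels go against genes known as markers of phosphate starvation: SPX domain genes, which phosphate-starved plants are known to raise, summed to between 2648 and 3561 CPM (counts scaled to a common library size) in the mock libraries and to between 97.0 and 110.3 CPM in the P deficiency-labelled ones, with 7 of 9 tested members lower and 1 higher at each day. The latter are therefore called P deficiency-labelled libraries throughout, and each direction is that of the labels. Whether the labels of this experiment were exchanged was not tested; if they were, every direction between its treatments given below would turn. In the GR245DS experiment the same genes summed to between 157 and 265 CPM. Root markers (Casparian strip, root hair and root cap genes) were present in every library, with sums from 303 to 410.2 CPM, and 4 of 7 tested were lower in the P deficiency-labelled libraries at day 4 and 0 at day 7. Over all genes tested, 18.4% were called lower and 20.3% higher at day 4, and 18.2% lower and 17.4% higher at day 7. The marker counts of this paragraph stand against these shares. Markers of leaf (photosystem I, oxygen-evolving, chlorophyll-binding and Rubisco small subunit genes, 27 in all) summed to between 14.5 and 27.7 CPM in the mock libraries of the phosphorus experiment, to between 45.9 and 57.3 CPM in the P deficiency-labelled ones (9 of 20 tested higher at day 4, 10 at day 7, 0 lower), with 5 to 9 of the 27 at 0 in a library, and to between 391 and 1531 CPM in the GR245DS experiment. In that experiment the third replicate of every group stood apart, with leaf marker sums from 1105 to 1531 CPM against 391 to 716 CPM in the other replicates. In bulk roots, fewer cells of a type and less RNA per cell cannot be told apart. The part of these differences in the results was not tested.

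The first comparison asked how root expression differed between the P deficiency-labelled libraries and mock. D27, CCD7 and CCD8-B, 1 gene named for each step from carotene to carlactone, were far lower in the P deficiency-labelled libraries at both days. The second D27 and CCD8-A of chromosome 5 were higher by smaller margins, and CCD8-A of chromosome 7 did not pass the test. Thus 3 of 6 genes were lower and 2 were higher at each day, in edgeR's quasi-likelihood test, with p-values adjusted by Benjamini-Hochberg over the 25137 genes that passed the filter. Over all genes tested, the shares called at day 4 were 18.4% lower and 20.3% higher. The shares at day 7 were 18.2% lower and 17.4% higher. The groups of the 5 called genes did not overlap at either day, which was so for 52.5% of all genes at day 4 and 46% at day 7. The median log2 fold change of the 6 genes was -2.31 at day 4 and -2.50 at day 7, against 0.02 and -0.02 over all genes tested.

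**Figure D1:**
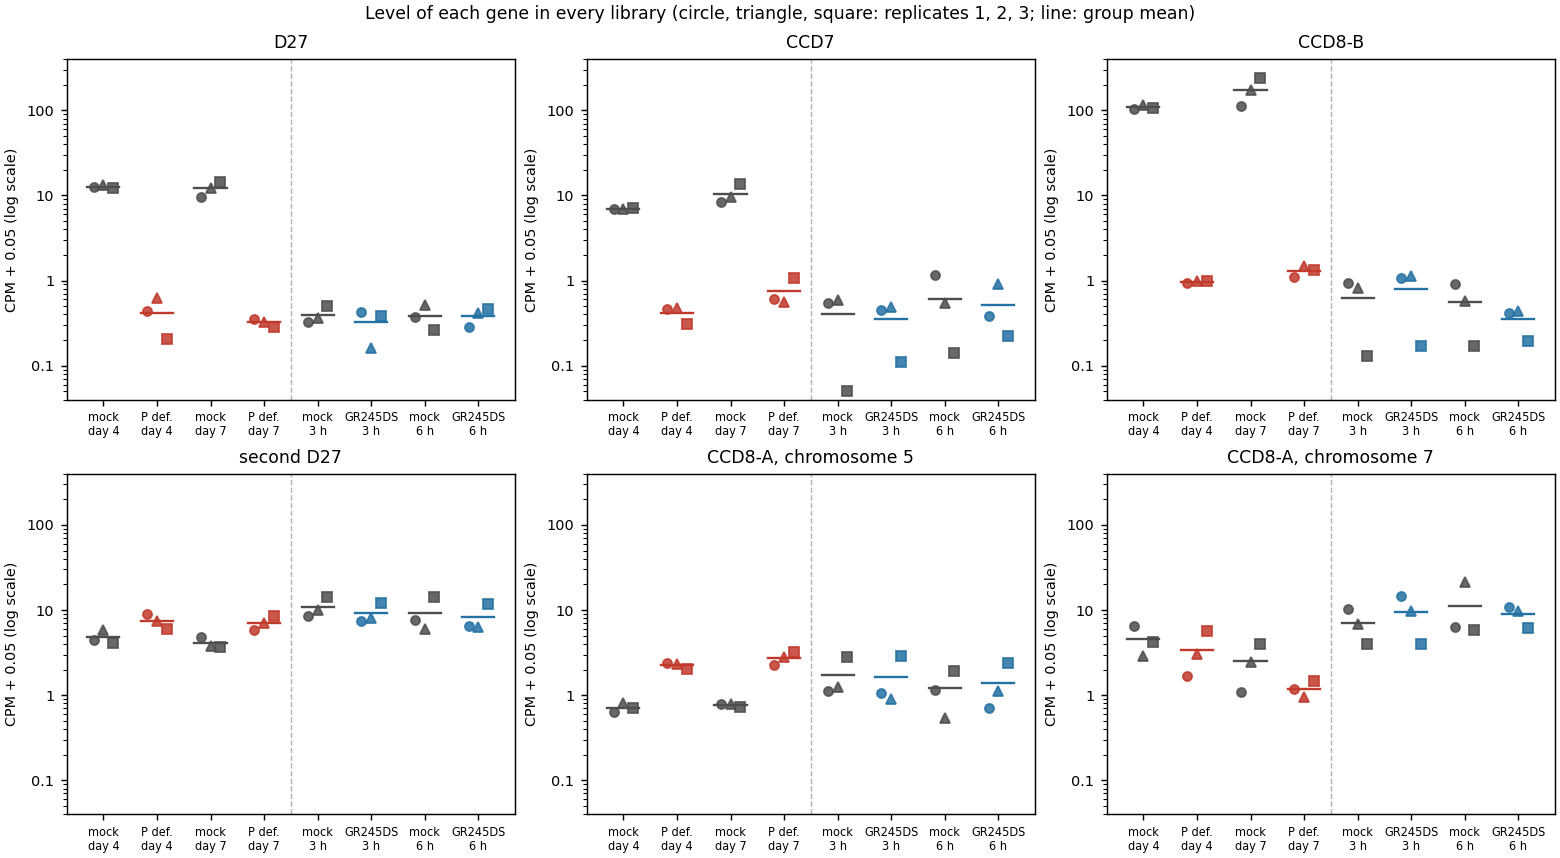
Level of each of the 6 genes in all 24 libraries, as CPM + 0.05 on a log axis shared by the panels (grey, mock; red, labelled P deficiency; blue, GR245DS; lines, group means; the dashed line separates the experiments). D27, CCD7 and CCD8-B reach 14.4, 13.6 and 240.5 CPM in the mock libraries of the phosphorus experiment and at most 0.568, 1.01 and 1.42 CPM in the P deficiency-labelled ones.

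D27, named after the entry enzyme, stood at 12.5, 13.3 and 12.3 CPM in the mock libraries of day 4 and at 0.383, 0.568 and 0.153 CPM in the P deficiency-labelled ones. Every mock library was thus more than an order of magnitude above every P deficiency-labelled library, the lowest of which held 6 reads of the gene. The group means were 12.7 ± 0.51 and 0.368 ± 0.21 CPM (SD, n = 3), a 34.4-fold difference (log2 fold change -5.08 ± 0.32 SE, edgeR adjusted p = 1.19e-07). At day 7 mock libraries held 9.51, 12.3 and 14.4 CPM against 0.308, 0.272 and 0.238 CPM, a 44.2-fold difference (log2 fold change -5.45 ± 0.34 SE, edgeR adjusted p = 8.54e-08).

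CCD7, named after the first cleavage enzyme, held 6.87, 6.86 and 7.11 CPM in mock at day 4 and 0.411, 0.432 and 0.255 CPM in the P deficiency-labelled libraries. The mock replicates lay close together, and the groups lay far apart. The difference of the means, 6.94 ± 0.14 against 0.366 ± 0.097 CPM (SD, n = 3), was 19.0-fold (log2 fold change -4.23 ± 0.31 SE, edgeR adjusted p = 4.55e-07). At day 7 the values were 8.31, 9.51 and 13.6 CPM in mock and 0.555, 0.517 and 1.01 CPM in the P deficiency-labelled libraries, a 15.1-fold difference (log2 fold change -3.91 ± 0.30 SE, edgeR adjusted p = 5.22e-07).

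CCD8-B, named after the enzyme that makes carlactone, showed the widest range of the 6 genes. Its mock libraries held 102, 115 and 108 CPM at day 4, while the P deficiency-labelled ones held 0.876, 0.932 and 0.944 CPM. The means, 108 ± 6.3 and 0.918 ± 0.036 CPM (SD, n = 3), differed 118-fold (log2 fold change -6.88 ± 0.28 SE, edgeR adjusted p = 1.47e-09). At day 7 its mock libraries spread from 112 through 171 to 240.5 CPM, against 1.05, 1.42 and 1.28 CPM in the P deficiency-labelled libraries. Even the lowest mock library was far above the highest of the other group, and the means differed 140.0-fold (log2 fold change -7.12 ± 0.28 SE, edgeR adjusted p = 1.03e-09).

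The second D27 and CCD8-A of chromosome 5 went the other way. The second D27 held 4.42, 5.81 and 4.01 CPM in mock at day 4 and 9.04, 7.39 and 5.92 CPM in the P deficiency-labelled libraries, so that the lowest of these was just above the highest mock library. Its 1.57-fold higher mean (log2 fold change 0.65 ± 0.22 SE, edgeR adjusted p = 0.0346) is a small change, and 8 of 20 alternative settings ended that call, among them a required change of at least 2-fold, the fit of only the 2 groups compared (edgeR adjusted p = 0.0518) and leaving out any of 5 single libraries. At day 7 it held 4.72, 3.68 and 3.63 CPM in mock and 5.73, 7.0 and 8.40 CPM in the P deficiency-labelled libraries, 1.76-fold higher (log2 fold change 0.81 ± 0.22 SE, edgeR adjusted p = 0.0128). The call of day 7 was lost without mock replicate 2 (adjusted p = 0.0510), without replicate 3 of the P deficiency-labelled libraries (adjusted p = 0.0588) and with the 2-fold requirement.

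CCD8-A of chromosome 5 was a low gene, at 0.583, 0.749 and 0.651 CPM in mock at day 4 and 2.33, 2.27 and 1.99 CPM in the P deficiency-labelled libraries. The groups were narrow and well apart, and the mean was 3.33-fold higher (log2 fold change 1.73 ± 0.25 SE, edgeR adjusted p = 0.000134). At day 7 mock libraries held 0.733, 0.737 and 0.677 CPM against 2.22, 2.75 and 3.13 CPM, a 3.77-fold difference (log2 fold change 1.91 ± 0.24 SE, edgeR adjusted p = 5.18e-05). Unlike the second D27, this gene kept its call in all 20 alternatives at both days, as did D27, CCD7 and CCD8-B.

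CCD8-A of chromosome 7 varied more among replicates than between the groups. It held 6.41, 2.85 and 4.14 CPM in mock at day 4 and 1.62, 2.96 and 5.56 CPM in the P deficiency-labelled libraries (log2 fold change -0.40 ± 0.49 SE, edgeR adjusted p = 0.545). At day 7 the values were 1.03, 2.39 and 3.97 CPM in mock and 1.14, 0.899 and 1.4 CPM in the other group, which overlapped (log2 fold change -1.09 ± 0.52 SE, edgeR adjusted p = 0.123, 95% interval -2.22 to 0.04). Without mock replicate 1, the lowest mock library of day 7, the gene was called lower (log2 fold change -1.45, edgeR adjusted p = 0.0261).

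**Figure D2:**
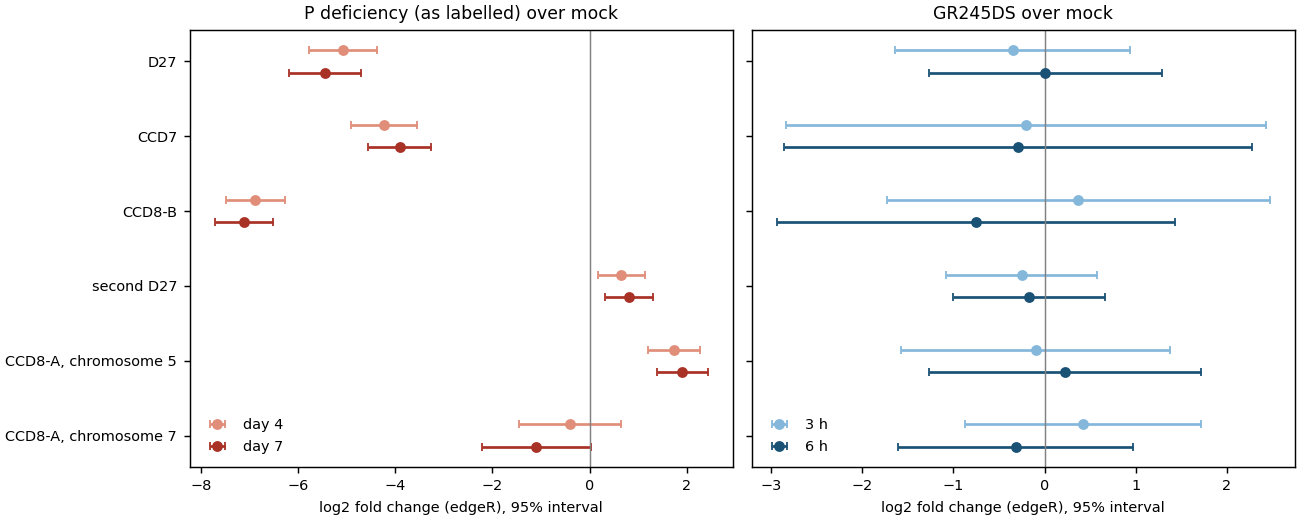
Log2 fold change (edgeR) of each gene with its 95% interval, treatment over mock, for the phosphorus experiment (left) and the GR245DS experiment (right; the axes differ). On the left D27, CCD7 and CCD8-B lie between -7.12 and -3.91 and the second D27 and CCD8-A of chromosome 5 between 0.65 and 1.91, while on the right every interval spans 0.

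The 2 days were also compared with each other. A test of whether the difference from mock changed between the days called 0 of 6 genes in edgeR, 0 at an unadjusted p under 0.05 and 0 in DESeq2. Over all genes, edgeR called 0.267% higher and 0.199% lower, and DESeq2 called 430 genes in all. Interactions ran from -0.69 ± 0.71 (SE, log2) for CCD8-A of chromosome 7 to 0.32 ± 0.42 for CCD7. In mock from day 4 to day 7, 0 of 6 genes passed in edgeR (2 at an unadjusted p under 0.05, 0 in DESeq2), with 0.847% of all genes higher and 0.497% lower. The 2 were CCD8-B (log2 fold change 0.69 ± 0.20 SE, edgeR adjusted p = 0.145) and CCD7 (0.59 ± 0.25 SE, edgeR adjusted p = 0.376). All 3 CCD7 libraries of day 7 were above all 3 of day 4, as no other of the 6 genes showed, and 16.6% of all genes had groups that did not overlap in this comparison. Without mock replicate 1 of day 7, CCD8-B was called higher (log2 fold change 0.90, edgeR adjusted p = 0.00613).

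In the P deficiency-labelled libraries, 0 of 6 genes passed between the days in edgeR (2 at an unadjusted p under 0.05), with 2.18% of all genes higher and 2.21% lower. CCD8-B and CCD7 were higher at day 7 than at day 4 in every library and CCD8-A of chromosome 7 lower in every library, and 20.5% of all genes had groups that did not overlap. CCD8-A of chromosome 7 had a mean of 3.38 ± 2.0 CPM at day 4 and 1.15 ± 0.25 CPM at day 7 (SD, n = 3; log2 fold change -1.56 ± 0.52 SE, edgeR adjusted p = 0.130), and DESeq2 called it (adjusted p = 0.0343). CCD7 moved from 0.366 to 0.695 CPM (log2 fold change 0.91 ± 0.34 SE, edgeR adjusted p = 0.187).

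Levels of different genes can be set side by side only per length, for which the authors' FPKM (fragment counts scaled for gene length and depth) were used. In mock at day 4 the order was CCD8-B at 42.3 ± 3.5, D27 at 8.35 ± 0.47, CCD7 at 3.03 ± 0.14, the second D27 at 2.32 ± 0.49, CCD8-A of chromosome 7 at 1.86 ± 0.70 and CCD8-A of chromosome 5 at 0.505 ± 0.080 FPKM (SD, n = 3). Neighbours in that order did not share values except the second D27 and CCD8-A of chromosome 7, which overlapped, and CCD7 and the second D27 were barely separated (lowest CCD7 library 2.89, highest library of the second D27 2.88 FPKM). The order was the same in mock at day 7, where CCD8-B reached 64.9 ± 23 FPKM and the 2 CCD8-A genes overlapped. CCD8-B alone made up 72.5% of the summed mean FPKM of the 6 genes in mock at day 4 and 80.9% at day 7.

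In the P deficiency-labelled libraries the order turned over. The second D27 led with 3.78 ± 0.78 FPKM at day 4 and 3.43 ± 0.75 at day 7 (SD, n = 3), or 48.3% and 49.4% of the sum. CCD8-A of chromosome 5, last of the 6 in mock, came next with 1.79 ± 0.14 and 2.10 ± 0.41 FPKM. CCD8-B had 4.71% and 6.92% of the sum, and no library of CCD8-B, D27 or CCD7 exceeded 0.544 FPKM. At day 4 CCD8-B, D27 and CCD7 followed each other with overlapping values, and so did CCD8-A of chromosomes 5 and 7. Within each library, D27 stood at 2.71 to 5.36 times the second D27 in mock (6 libraries), while the second D27 stood at 9.90 to 29.3 times D27 in the P deficiency-labelled libraries. CCD8-B stood at 12.1 to 16.1 times CCD7 in mock and at 1.13 to 3.29 times CCD7 in the other group, in FPKM.

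**Figure D3:**
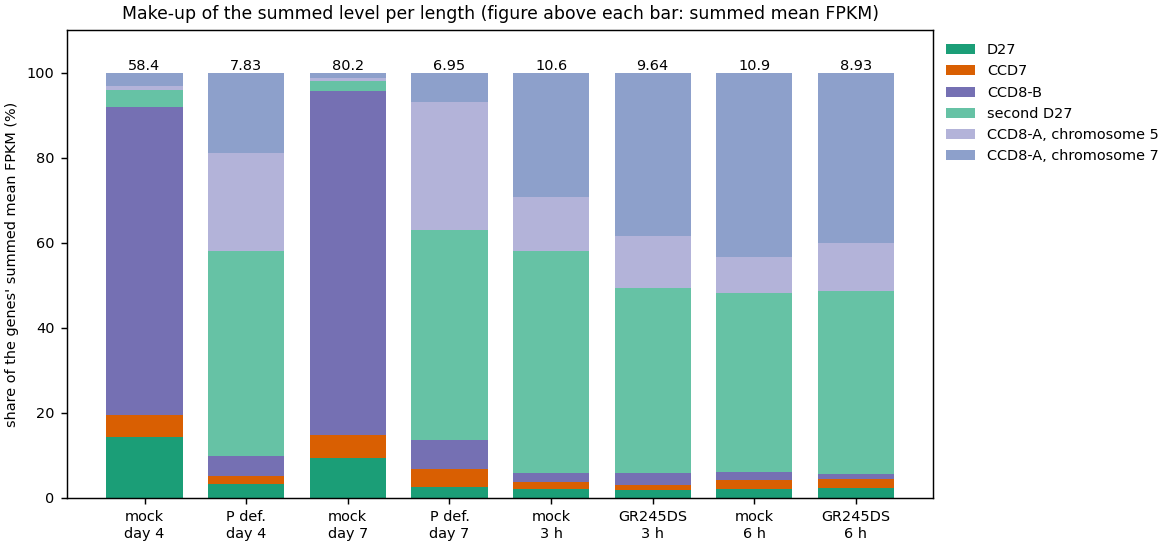
Share of each gene in the summed mean FPKM of the 6 genes, for each group, with the sum above each bar. CCD8-B makes up 72.5% and 80.9% in the mock groups of the phosphorus experiment and at most 6.92% in the other 6 groups, where the second D27 and the CCD8-A genes take up most of the bar.

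The GR245DS experiment asked whether a strigolactone analogue changes root expression within hours. None of the 6 genes was called at 3 h or at 6 h: 0 of 6 in edgeR, 0 at an unadjusted p under 0.05 and 0 in DESeq2, at either time, and the groups of every gene overlapped at both times. Over all 24814 genes tested, 0.995% were higher and 0.0121% lower at 3 h, and 0.48% higher and 0.00403% lower at 6 h, and 11.9% and 12.5% had groups that did not overlap. Here libraries with the same replicate number deviated together, and a fit with the replicate number as a block called 3.13% of all genes at 3 h and 2.05% at 6 h, and again 0 of the 6. In neither fit was a difference between the 3 h and 6 h responses called for any of the 6 (0 of 6 by edgeR, and 0% of all genes higher and 0% lower). From 3 h to 6 h, in mock and in GR245DS alike, 0 of 6 genes and 0% of all genes passed in either direction (344 and 215 genes at an unadjusted p under 0.05, 5 and 0 in DESeq2; for the difference between times 289 and 0). The groups of the 6 genes overlapped between 3 h and 6 h, against 4.42% of all genes without overlap in mock and 4.88% in GR245DS.

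A missed threshold does not show that a gene stayed the same, and the intervals differ between the genes. With the replicate block, the second D27 was bounded most tightly: log2 fold change -0.25 ± 0.17 SE at 3 h (95% interval 0.647-fold to 1.09-fold) and -0.15 ± 0.17 at 6 h (0.695-fold to 1.17-fold). For CCD8-A of chromosome 5 the fold lay between 0.521 and 1.51 at 3 h and between 0.664 and 2.01 at 6 h, and for CCD8-A of chromosome 7 between 0.710 and 2.31 and between 0.472 and 1.55. The 3 genes that were low here were bounded loosely. The interval was 0.609-fold to 2.85-fold at 3 h and 0.292-fold to 1.59-fold at 6 h for CCD8-B, 0.298-fold to 2.07-fold and 0.379-fold to 2.56-fold for D27, and 0.276-fold to 3.5-fold and 0.277-fold to 3.30-fold for CCD7. The smallest adjusted p of the 6 in the block fit was 0.493, for the second D27 at 3 h.

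D27 was low throughout the GR245DS experiment, from 0.109 to 0.465 CPM over the 12 libraries, or 4 to 17 reads. CCD8-B held 0.889, 0.757 and 0.080 CPM in mock and 1.02, 1.09 and 0.121 CPM in GR245DS at 3 h, and 0.873, 0.523 and 0.122 CPM in mock and 0.363, 0.391 and 0.147 CPM in GR245DS at 6 h. In each group the last value, that of replicate 3, was the lowest. CCD7 held 0.50, 0.548 and 0 CPM in mock and 0.407, 0.438 and 0.060 CPM in GR245DS at 3 h, and 1.11, 0.494 and 0.092 CPM in mock and 0.330, 0.872 and 0.176 CPM in GR245DS at 6 h. Its count of 0 in replicate 3 of mock at 3 h allows a level of up to 0.080 CPM (3 counts, counting error only), and that replicate was again the lowest in every group.

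The second D27 ranged from 5.93 to 14.2 CPM over the 12 libraries. In mock it held 8.47, 9.90 and 14.1 CPM at 3 h and 7.51, 5.93 and 14.2 CPM at 6 h, and in GR245DS 7.32, 8.07 and 11.9 CPM at 3 h and 6.37, 6.35 and 11.9 CPM at 6 h, with replicate 3 the highest in each group. CCD8-A of chromosome 5 did likewise, at 1.08, 1.20 and 2.77 CPM in mock and 1.02, 0.848 and 2.87 CPM in GR245DS at 3 h. At 6 h it held 1.11, 0.494 and 1.89 CPM in mock and 0.661, 1.08 and 2.32 CPM in GR245DS. CCD8-A of chromosome 7 had its highest single value anywhere, 21.0 CPM, in replicate 2 of mock at 6 h, where the other mock libraries held 6.31 and 5.71 CPM. In FPKM the second D27 and CCD8-A of chromosome 7 led in all 4 groups with overlapping values, and CCD8-B had between 1.18% and 2.77% of the sum.

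The third replicates thus split the genes. CCD8-B, CCD7 and CCD8-A of chromosome 7 were below both other replicates in 4 of 4 groups, at 0.0972 to 0.389, 0 to 0.293 and 0.328 to 0.60 of their mean. The second D27 and CCD8-A of chromosome 5 were above both in 4 of 4 groups, at 1.54 to 2.12 and 2.37 to 3.08 times their mean. D27 was above both in 2 groups, below both in 1 and between them in 1. Of all genes tested, 16.3% were below in all 4 groups and 15.9% above in all 4. Without the third replicates 0 of 6 genes were called at 3 h and at 6 h, with log2 fold changes from -0.31 to 0.51 at 3 h and from -0.88 to 0.12 at 6 h. Leaf marker sums were highest in the same libraries, and their part in these values was not tested.

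**Figure D4:**
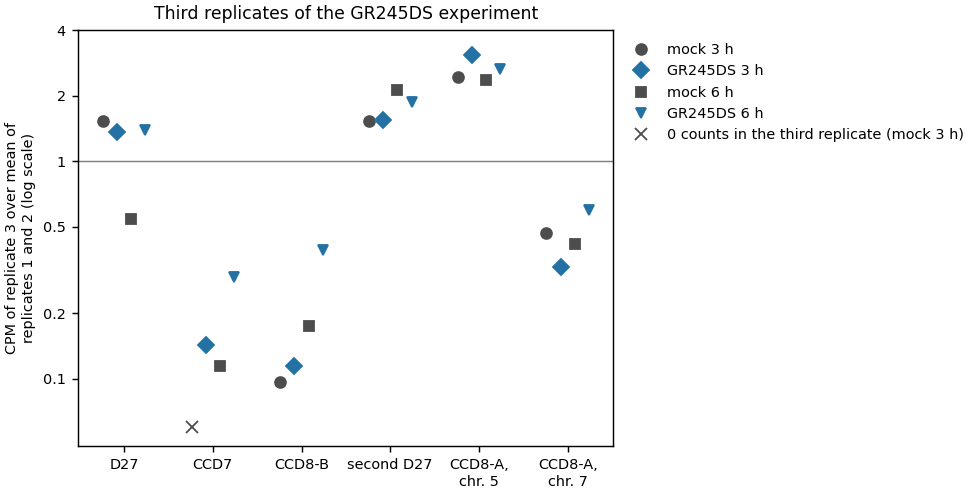
CPM of replicate 3 divided by the mean of replicates 1 and 2, for each gene in each of the 4 groups of the GR245DS experiment, on a log axis (grey, mock; blue, GR245DS; the cross marks a count of 0). CCD7, CCD8-B and CCD8-A of chromosome 7 lie below 1 in every group, and the second D27 and CCD8-A of chromosome 5 at 1.54 or more.

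The steps before and after these 6 genes were followed in lists made from words in the gene descriptions, with 1 sulfotransferase gene added by its identifier. The counts of each list stand against the shares of all genes given above, 18.4% lower and 20.3% higher at day 4 and 18.2% lower and 17.4% higher at day 7. Downstream of carlactone, 4 of 5 genes were lower in the P deficiency-labelled libraries at day 4 and 5 of 5 at day 7, with 0 higher (median log2 fold change -3.90 and -4.27). They include cytochrome P450s of the family of MAX1, which oxidises carlactone in Arabidopsis. Sobic.003G269500 of this family held 80.2 ± 6.2 CPM in mock at day 4 and 3.25 ± 1.5 CPM in the other group (24.7-fold, edgeR adjusted p = 2.64e-07). The cytosolic sulfotransferase 5 gene Sobic.005G213600 held 45.2 ± 0.68 CPM in mock and 0.0776 ± 0.094 CPM in the P deficiency-labelled libraries at day 4 (edgeR adjusted p = 4.72e-08), and at day 7 had 0 counts in the 3 P deficiency-labelled libraries against 33.6 ± 6.9 CPM in mock. Of the other carotenoid cleavage genes, 4 of 5 tested were lower at each day and 0 higher (medians -1.29 and -2.42). Among them Sobic.010G050300, named CCD1 after enzymes that cleave many carotenoids, held 47.6 ± 4.2 CPM in mock at day 4 and 0.283 ± 0.28 CPM in the other group, and Sobic.002G168800, named NCED3 after the enzymes that start abscisic acid synthesis, held 109 ± 12 against 44.6 ± 8.0 CPM (SD, n = 3).

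Upstream, a list held genes of the plastid MEP pathway, which supplies the isoprene units of carotenoids, together with prenyl diphosphate genes. All genes of this list are called MEP genes here. Of 15 tested, 7 were lower at each day, while 3 were higher at day 4 and 2 at day 7. The 2 named by the rule were deoxyxylulose phosphate synthases, the entry enzyme of the pathway: Sobic.002G064500 at 31.6 ± 0.70 against 2.67 ± 1.1 CPM and Sobic.002G064700 at 10.2 ± 0.33 against 0.375 ± 0.21 CPM, mock against the P deficiency-labelled libraries at day 4 (SD, n = 3). Among carotenoid synthesis genes 6 of 15 were lower and 3 higher at each day. The higher calls of both lists at day 4, 3 of 15 each, were near the 20.3% of all genes. The phytoene synthase 3 gene Sobic.002G292600, of the first committed enzyme, was 4.64-fold higher at day 4 (20.5 ± 4.0 against 4.43 ± 1.4 CPM, edgeR adjusted p = 6.10e-06), and the phytoene desaturase gene Sobic.006G232600 was 3.11-fold lower (51.1 ± 6.9 against 159 ± 13 CPM, edgeR adjusted p = 3.04e-07). The medians were -0.35 and -0.48 for the MEP genes and -0.10 at both days for carotenoid synthesis.

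Around the pathway, GRAS proteins of the NSP and RAM1 kinds regulate symbiosis, and in rice and Medicago NSP1 and NSP2 are known to control D27. In their list 5 of 7 genes were lower at each day and 1 higher (medians -1.94 and -2.90). The 1 higher gene, Sobic.008G169300, looked up after its values were seen, is a nucleoporin that shares only the abbreviation NSP1. Sobic.002G372100, named NSP1, held 52.8 ± 2.0 CPM in mock at day 4 and 1.53 ± 0.19 CPM in the P deficiency-labelled libraries (34.6-fold, edgeR adjusted p = 7.73e-10), and Sobic.001G341400, also named NSP1, 55.4 ± 3.8 against 6.82 ± 0.97 CPM (SD, n = 3). Of the ABCG transporters, a family with strigolactone exporters in petunia, 18 of 42 were lower at day 4 and 11 at day 7, while 6 and 5 were higher (medians -0.35 and -0.16), the latter below the shares of all genes, 20.3% and 17.4%. Sobic.003G281500 (ABCG38) was 28.9-fold lower than mock and Sobic.008G033800 (ABCG41) 38.7-fold at day 4. In the perception list (D14, MAX2, SMAX1 and D53 genes) 5 of 14 were lower at each day, while 3 were higher at day 4, near the 20.3% of all genes, and 2 at day 7 (medians 0.05 and -0.35). The receptor gene D14, Sobic.009G254700, had 2.65 ± 0.49 CPM in mock at day 4 and 0.0379 ± 0.066 CPM in the other group, while Sobic.010G043000, homolog of the F-box protein MAX2 that acts with the receptor, was higher at 186 ± 14 against 61.4 ± 1.5 CPM (SD, n = 3).

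In the GR245DS experiment 0.995% of all genes were higher at 3 h and 0.48% at 6 h, and the perception list had the largest share of calls among the pathway lists, 28.6% at 3 h and 21.4% at 6 h. At 3 h and at 6 h 1 of 15 MEP genes was higher and 0 lower, the same deoxyxylulose phosphate synthase Sobic.002G064500, at 27.6 ± 3.5 CPM in GR245DS and 6.04 ± 1.7 CPM in mock at 3 h (4.58-fold, edgeR adjusted p = 0.00174) and at 28.4 ± 1.5 against 6.81 ± 1.9 CPM at 6 h (4.17-fold, edgeR adjusted p = 0.00354). Of the carotenoid synthesis genes 1 was higher at each time, the beta-carotene hydroxylase 2 gene Sobic.006G188200, chosen after its values were seen, at 41.0 ± 18 against 6.18 ± 2.2 CPM at 3 h (edgeR adjusted p = 0.00555). That enzyme acts on the carotene that D27 also uses. Of 14 perception genes 4 were higher at 3 h and 3 at 6 h, all named D53 or SMAX1, repressors that strigolactone or karrikin signals destroy in rice and Arabidopsis, and also chosen after their values were seen. D53 gene Sobic.005G002400 stood at 148 ± 15 against 40.4 ± 17 CPM at 3 h (edgeR adjusted p = 0.0166), D53 gene Sobic.008G002400 at 155 ± 26 against 51.1 ± 15 CPM, Sobic.004G325000 at 101 ± 15 against 30.2 ± 10 CPM and Sobic.007G090900 at 312 ± 13 against 184 ± 10 CPM (SD, n = 3). The count at 3 h was 0 in the fit of only the 2 groups compared and 2 without GR245DS replicate 1, and the count at 6 h was 1 without mock replicate 2. In the lists of carlactone oxidation, other cleavage enzymes and GRAS regulators 0 genes passed, and 1 of 43 ABCG genes, Sobic.002G174000 (ABCG53; adjusted p = 0.0491, and chosen after its values were seen), passed at 3 h and 0 at 6 h in edgeR.

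With the replicate block, more list genes passed. That fit called 3.13% of all genes at 3 h and 2.05% at 6 h in either direction. Of 43 ABCG genes 7 were higher at 3 h and 6 at 6 h, and of 14 perception genes 6 and 5 were higher. Those of 6 h include the receptor gene D14, Sobic.009G254700, chosen here after its values were seen (log2 fold change 2.33, edgeR adjusted p = 0.0386). The fit without the block did not call D14 at 6 h (edgeR adjusted p = 0.543), and neither fit called it at 3 h. In the carlactone list 1 of 4 genes, Sobic.003G269600, chosen after its values were seen, was higher at both times (log2 fold change 1.34 and 1.27, edgeR adjusted p = 0.0295 and 0.0450). At 3 h 2 of 15 MEP genes were higher, and NCED3, Sobic.002G168800, was lower (log2 fold change -1.26, edgeR adjusted p = 0.0414).

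**Figure D5:**
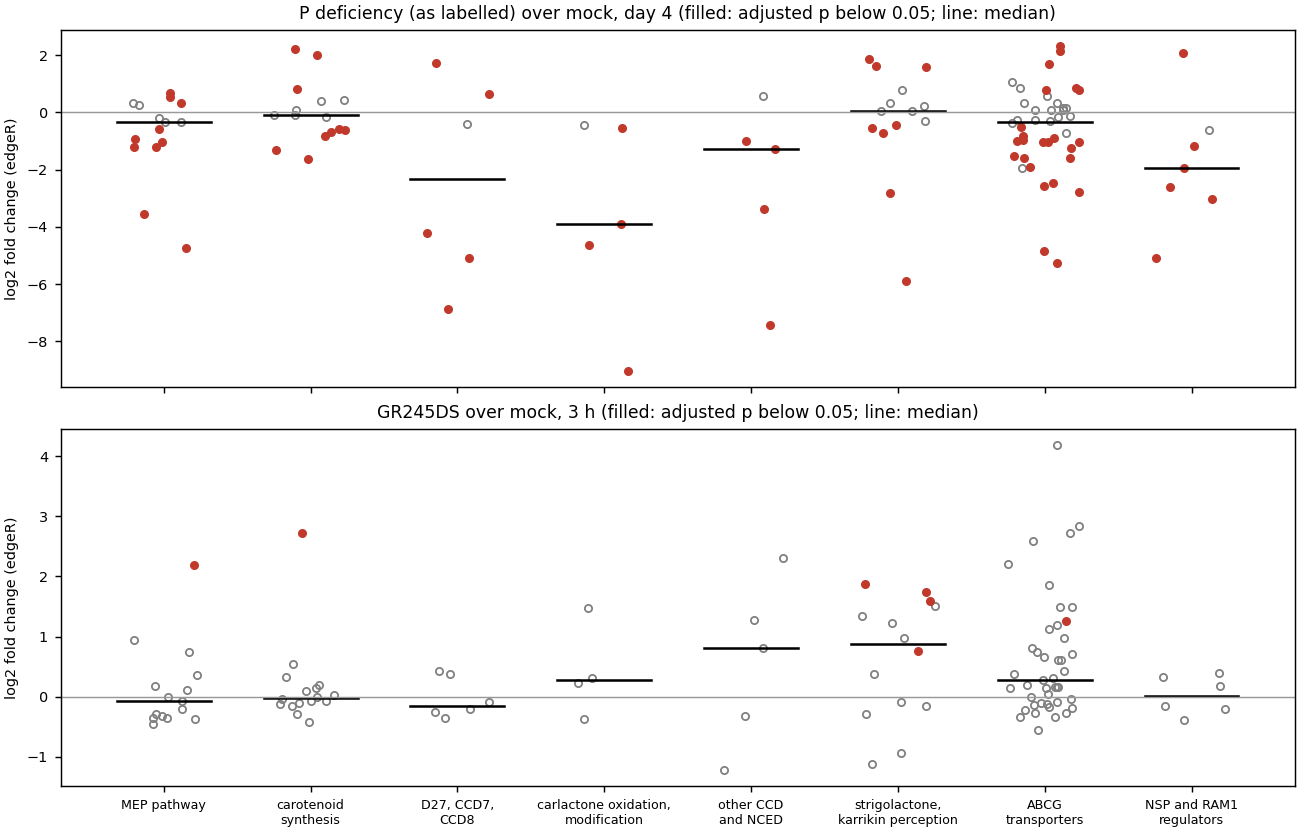
Log2 fold change (edgeR) of every tested gene in the 6-gene set and the pathway lists, at day 4 of the phosphorus experiment (top) and at 3 h of the GR245DS experiment (bottom), ordered from carotenoid precursors to regulators (filled red, adjusted p under 0.05; open, not; bar, median). At the top the lowest medians are those of carlactone oxidation (-3.90) and of D27, CCD7 and CCD8 (-2.31), and at the bottom filled points appear in 4 lists and in none of the 6 genes.

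Other genes were searched for the most similar pattern over the 8 groups, as the root mean square difference of log2(mean CPM + 0.5) profiles centred within each experiment, among 16211 genes. The nearest to CCD8-B was the purple acid phosphatase 3 gene Sobic.001G442300 (difference 0.20, against a median of 2.30 over all candidates), followed by the SEC12-like gene Sobic.001G054000 (0.24) and the lectin gene Sobic.002G421300 (0.30). Purple acid phosphatases are enzymes that free phosphate from organic esters. Nearest to CCD7 were Sobic.002G368600, a UDP-arabinopyranose mutase (0.15), Sobic.009G037200, a benzoyltransferase (0.15), and Sobic.005G187000, a cyclin-dependent kinase inhibitor (0.16). At day 4 the edgeR log2 fold change was -4.23 for CCD7 and -3.62, -7.68 and -3.31 for these neighbours in turn. Nearest to D27 were Sobic.004G214500, a filament-like protein (0.13), Sobic.003G136500 (0.14) and Sobic.007G190700, a glycerophosphodiester phosphodiesterase (0.14). The median over all candidates was 1.14 for CCD7 and 1.41 for D27.

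The second D27 was nearest to Sobic.010G098800, a NADH-ubiquinone oxidoreductase chain (0.036), Sobic.005G204200, a plastid release factor (0.048), and Sobic.009G191100, a NAD kinase (0.052). CCD8-A of chromosome 5 was nearest to Sobic.001G516500, an expansin-like gene (0.049), Sobic.003G273700, a cytokinin-activating enzyme (0.067), and Sobic.009G156000 (0.076). CCD8-A of chromosome 7 was nearest to Sobic.004G093200, an allene oxide synthase (0.098), Sobic.001G520100, an MLO homolog (0.12), and Sobic.002G347300, an amine oxidase (0.14). The median over all candidates was 0.33 for the second D27, 0.51 for CCD8-A of chromosome 5 and 0.49 for CCD8-A of chromosome 7. Differences are therefore to be read against the median of the same gene. With a pseudocount of 0.1 CPM all 3 neighbours of the second D27 were kept, 2 of CCD8-A of chromosome 7, 1 each of CCD8-B and CCD7, and 0 of D27 and of CCD8-A of chromosome 5.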

How the data were processed

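RNA sequencing of 24 root libraries came as 2 deposited tables of 12 libraries. The submitters' processing notes name DESeq2 1.22.1, featureCounts, HISAT2 and fastp without their roles. Genome build, annotation version and strand setting: not given in the sources used here. No positions or sequences are therefore printed. The authors deposited, per the file headers, raw counts of reads for each gene in each library, and FPKM values beside them. FPKM served only to compare levels between genes. No per-library column was left without a sample.

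Counts were fitted per table with 1 mean per group (edgeR 4.0.16, R 4.3.3, TMM scaling, filterByExpr, robust quasi-likelihood test, Benjamini-Hochberg over all genes tested, threshold adjusted p 0.05), after tests on simulated data. CPM are counts over library totals scaled by TMM factors. The 2 experiments were never tested against each other. Intervals are 95% intervals of the fit with 1 mean per group, except where the replicate block is named. Each SE is an approximation, the absolute log2 fold change divided by the square root of the F statistic of the edgeR test. The intervals were built from that SE, so they are approximate too.

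The 6 genes and all lists were chosen with earlier results of these data known. Genes named from a list are its 2 with the smallest adjusted p in any of the 4 treatment comparisons, and the genes named for a similar pattern are the 3 nearest among described genes tested in both tables with at least 1 CPM in some group.

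Correlations of deviations from the group means between libraries with the same replicate number were over 0.1 in 18 of 18 pairs of the GR245DS experiment (0.136 to 0.838), so its numbers were taken to pair the libraries, and in 5 of 18 of the phosphorus experiment. Pairs with different numbers were over 0.1 in 9 of 36 cases in the GR245DS experiment (-0.656 to 0.389). In the phosphorus experiment 13 of 36 such pairs were over 0.1 (-0.487 to 0.565). The pairing comes from this check and not from the labels. Alternatives were RLE factors, scaling by total counts, DESeq2 1.42.0, no filter, at least 30 reads in 3 libraries, only the 2 groups compared, the replicate block, leaving out each library, leaving out the third GR245DS replicates and a 2-fold minimum.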

Additional observations from a re-analysis of the deposited data

How the results depend on the processing

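No fold change of the 6 genes that passed the test changed sign, and D27, CCD7, CCD8-B and CCD8-A of chromosome 5 kept their calls at both days under all 20 alternatives. Over all 10 comparisons there were 1208 alternative values of the 6 genes, most of them of genes not called at first, which could not lose a call. The second D27 lost its call in 8 of 20 alternatives at day 4 and in 3 of 20 at day 7, and no other called gene lost one. Among the values not called at first, 3 gained a call. For mock from day 4 to day 7 the number of the 6 genes called ranged from 0 to 1 when 1 library was left out (CCD8-B without mock replicate 1 of day 7), and for the P deficiency-labelled libraries it was 1 with DESeq2 (CCD8-A of chromosome 7). In the phosphorus experiment the replicate block ended the day 4 call of the second D27 (log2 fold change 0.65, edgeR adjusted p = 0.0532) and no other call of the 6 genes; there the libraries share only a number. The second D27 also lost its day 4 call without mock replicate 1 (adjusted p = 0.103), mock replicate 3 (0.155), replicate 1 (0.187) or 2 (0.0940) of the P deficiency-labelled libraries, or mock replicate 2 of day 7 (0.0548, edgeR).

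Counts over all genes moved more. A 2-fold minimum cut the called genes from 9713 to 4682 at day 4 and from 8958 to 4492 at day 7. The interaction with day gave 117 genes, 430 with DESeq2, 71 with the replicate block and 58 to 180 with 1 library left out. Mock between days gave 338, 895 with DESeq2, 176 with only the 2 groups, 210 with the 2-fold minimum and 66 to 743 with 1 library left out. The P deficiency-labelled libraries gave 1103 between days, 1869 with DESeq2, 646 with the 2-fold minimum and 596 to 1452 with 1 library left out. GR245DS gave 250 at 3 h and 120 at 6 h, 605 and 332 with DESeq2, 777 and 509 with the replicate block, 100 and 82 with only the 2 groups, and 122 to 304 and 52 to 152 with 1 library left out. In the lists, the 2-fold minimum left 5 MEP genes at each day and, at day 4, 4 carotenoid synthesis and 5 perception genes. Perception genes called at day 7 numbered 4 with only the 2 groups, and at day 4 5 without mock replicate 2; root markers at day 4 numbered 4, and 1 or 2 under 4 alternatives, and at day 7 0, and 1 or 2 under 3. At 3 h the perception list had 4 genes called, 0 with only the 2 groups and 2 without GR245DS replicate 1. At 6 h it had 3, and 1 without mock replicate 2, while the 1 carotenoid synthesis gene was lost when any library of that comparison was left out. The carlactone list had 0 genes called at both times, and 1 at both times with the replicate block. At 3 h it also had 1 with DESeq2, without the third replicates and without replicate 3 of GR245DS at 3 h. Leaving out that same library gave 1 at 6 h too. The 1 ABCG gene of 3 h became 5 with DESeq2, 7 with the replicate block and 2 without replicate 3 of GR245DS at 3 h. The count was 0 with either other scaling, with only the 2 groups compared and without any other single library, those of 6 h included. The causes were not tested. In the GR245DS experiment D27, CCD7 and CCD8-B rest on 0 to 40 reads per library, which limits what could be detected there.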
